A study of Homo sapiens with 6 samples.

Results

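The genes described here encode the nuclear pore complex and the soluble receptors that carry cargo through it: nucleoporins, importins, exportins, the small GTPase RAN and its exchange factor RCC1. They were chosen by gene symbol, with earlier results of these data known. Taken were the rows of the count table named NUP, KPNA, KPNB, XPO or IPO with a number or letter, plus 13 named genes (TPR, SEC13, SEH1L, AAAS, NDC1, POM121, RANBP2, TNPO1, TNPO2, TNPO3, CSE1L, RAN and RCC1). Of the 58735 rows, 55 matched, and 53 of them had at least 10 counts in 3 or more libraries. KPNA7 and NUP210L did not reach that level. The libraries came from ACHN, a cell line derived from a human renal carcinoma, transfected with 1 small interfering RNA (siRNA) against OTUD1, a deubiquitinase (3 libraries), or with a control siRNA (3 libraries). The time after transfection is not given in the labels, and both groups were grown in the same serum-supplemented medium. Whether the 3 libraries of a group are separate cultures is not stated, so p-values reflect the spread among these libraries alone, and it may be technical.

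The nuclear pore is a ring of stacked subunits in the nuclear envelope. An inner ring and a pair of outer rings built from the Y complex form the scaffold, transmembrane nucleoporins anchor it, and nucleoporins with phenylalanine-glycine repeats fill the channel. Filaments extend from the pore into the cytoplasm, and a basket extends into the nucleus. Importins bind their cargo in the cytoplasm and release it when they meet RAN bound to GTP in the nucleus. Exportins bind cargo together with RAN-GTP, and RCC1 on chromatin keeps nuclear RAN loaded with GTP. Cells take the pore and envelope apart in mitosis and build new pores during interphase.

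Total counts were 17243433 to 21013530 in the OTUD1 siRNA libraries and 16753495 to 18993534 in the control libraries. OTUD1 itself had 28, 17 and 25 counts in the OTUD1 siRNA libraries, against 61, 67 and 65 in the control libraries (log2 fold change -1.69; edgeR quasi-likelihood adjusted p = 4.37e-07; SE 0.24). The 6 renal carcinoma markers, PAX8, PAX2, KRT8, KRT18, EPCAM and VIM, were all detected, and their summed level was 3635 to 3735 CPM, the deposited count scaled to the library total after TMM adjustment, in OTUD1 siRNA libraries and 7069 to 7290 CPM in control libraries. EPCAM alone among them was called higher (log2 fold change 0.14). Of 6 leukocyte markers, PTPRC, CD3E and LYZ had no count in any library. The summed level of the 6 was 0.794 to 1.14 CPM in OTUD1 siRNA libraries and 0.175 to 0.661 CPM in control libraries. CD8A, the 1 leukocyte marker tested, was called higher (log2 fold change 1.84, edgeR adjusted p = 0.00485). It had 16, 12 and 11 counts in OTUD1 siRNA libraries and 4, 4 and 1 in control libraries. Of 6 endothelial and fibroblast markers, 3 were tested; the sum of the 6, mostly THY1, was 143 to 154 CPM in OTUD1 siRNA libraries and 284 to 295 CPM in control libraries. PDGFRB was called higher, 1.74-fold, and COL1A1 did not pass (log2 fold change 0.37). These are bulk libraries, in which fewer cells of a kind and less RNA per cell cannot be told apart.

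Nuclear pore and transport genes were mostly lower after OTUD1 siRNA. TPR, the filament protein of the nuclear basket, fell 2.61-fold, RCC1 2.4-fold, the importin alpha KPNA3 2-fold and the importin IPO7 1.79-fold. Of the 53 members, 43 fell, 1 (SEC13) rose and 9 did not pass the test (edgeR's quasi-likelihood test, adjusted over all genes tested, threshold 0.05). Over the 15244 genes tested, 31.1% were called lower and 29.3% higher, 60.4% in either direction. The median log2 fold change, OTUD1 siRNA over control siRNA, was -0.39 over the members and 0.01 over all genes tested. Of the calls, 15 were decreases of 0.5 or more (log2) (13.6% of all genes tested) and 3 were decreases of 1 or more (3.53% of all genes tested). All 3 OTUD1 siRNA libraries lay below all 3 control libraries for 43 members (33.0% of all genes tested), and above them for 1 (31.5%). Most members are well expressed, and among the 11041 genes with a mean of at least 5 CPM, in a fit to those genes, 35.3% were called lower and 35.2% higher, against 41 lower and 3 higher of 52 members.

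**Figure D1:**
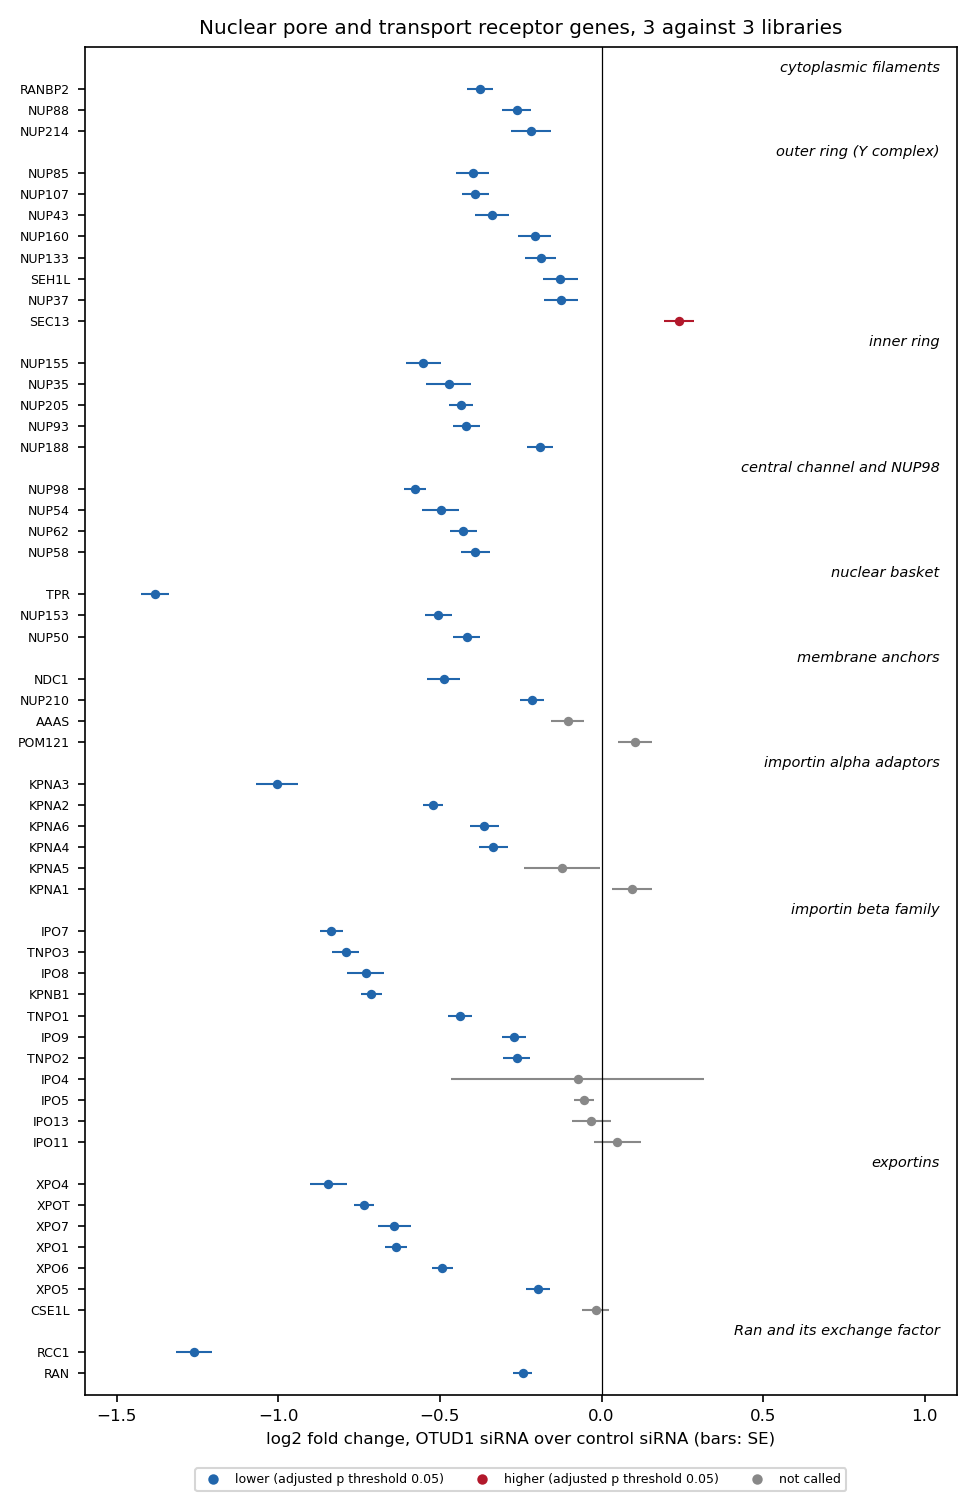
Log2 fold change of each of the 53 members (x axis, OTUD1 siRNA over control siRNA, bars are SE), grouped by place in the pore or kind of receptor. TPR, RCC1 and KPNA3 lie at or below -1, and SEC13 is the 1 member called higher.

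**Figure D2:**
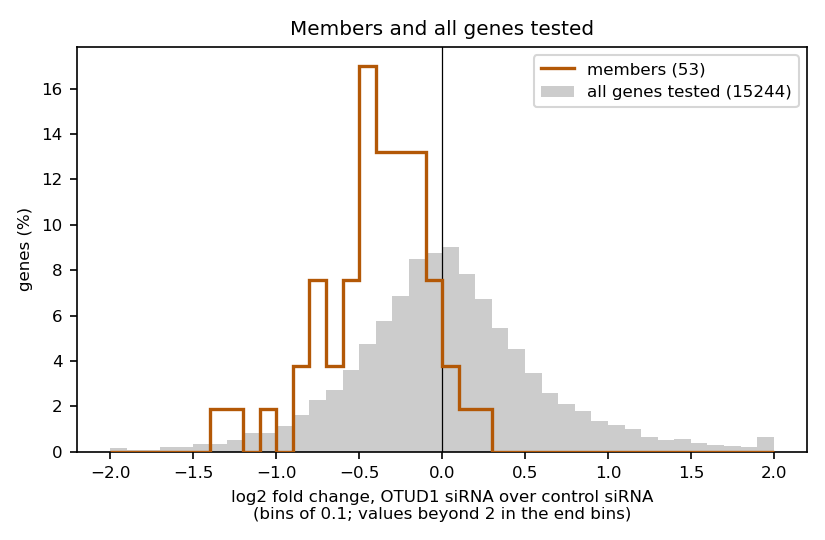
Share of genes (y axis, percent) by log2 fold change in bins of 0.1 (x axis, OTUD1 siRNA over control siRNA) for the members (line) and for all 15244 genes tested (grey). The members' median is -0.39 and that of all genes 0.01.

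In the nuclear basket, all 3 members fell. TPR (ENSG00000047410.13; hg38 chromosome 1, 186311652 to 186375693, minus strand), a long coiled-coil protein that shapes the basket and keeps the nucleoplasm below the pore open, had 74.7, 69.8 and 74.1 CPM in the OTUD1 siRNA libraries, against 179, 193 and 197 CPM in the control libraries. The groups were far apart, with a log2 fold change of -1.38 (edgeR adjusted p = 4.26e-21; SE 0.043). TPR overlaps PRG4, which had 0 to 3 counts per library, over 670 exon bases on the opposite strand. NUP153, which anchors the basket to the nuclear ring, had 125, 127 and 117 CPM against 167, 187 and 170 CPM in control libraries (log2 fold change -0.51, SE 0.042). NUP153 overlaps the antisense transcript AL138724.1 over 558 exon bases. That transcript was called higher, 1.7-fold, with 117 to 146 counts in OTUD1 siRNA libraries and 45 to 97 in control libraries. NUP50, a basket protein that helps to take importin alpha apart from its cargo, was 1.34-fold lower. TPR's share of the summed basket level, set per kilobase of the principal transcript, was 15.5% to 16.4% in OTUD1 siRNA libraries and 25.9% to 27.3% in control libraries. With all annotated exon bases as the length it was 15.3% to 16.5% in OTUD1 siRNA libraries and 25.6% to 27.2% in control libraries.

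In the central channel, the 4 members fell by similar amounts, with log2 fold changes of -0.58 to -0.39. NUP98, a repeat nucleoporin found on both faces of the pore, had 201, 199 and 198 CPM in OTUD1 siRNA libraries and 286, 305 and 302 CPM in control libraries (log2 fold change -0.58; edgeR adjusted p = 7.73e-15; SE 0.034). NUP62, which forms the channel complex with NUP54 and NUP58, had 85.2, 83.1 and 87.4 CPM in OTUD1 siRNA libraries and 112, 117 and 114 CPM in control libraries (-0.43, SE 0.042). The 3 OTUD1 siRNA libraries of each of these genes differed by less than the gap to the controls. NUP54 fell 1.41-fold. NUP58 had 101, 94.2 and 97.5 CPM in OTUD1 siRNA libraries and 123, 137 and 123 CPM in control libraries, and fell 1.31-fold. NUP62 shares 720 exon bases with other genes on its strand, IL4I1 among them, and 626 with ATF5 on the opposite strand. Its level is therefore less certain.

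All 5 inner-ring members fell. NUP205, a large scaffold protein, had 156, 156 and 161 CPM in OTUD1 siRNA libraries and 208, 221 and 211 CPM in control libraries (log2 fold change -0.43; edgeR adjusted p = 1.72e-11; SE 0.036). NUP93, which links the inner ring to the channel complex, had 91.7, 97.0 and 93.6 CPM in OTUD1 siRNA libraries and 122, 127 and 128 CPM in control libraries (-0.42, SE 0.041). The groups did not overlap for either gene. NUP155 fell 1.47-fold and NUP35 1.39-fold. NUP188, a paralog of NUP205, fell 1.14-fold under TMM scaling but did not pass with library totals (log2 fold change -0.062) or after quantile normalization (-0.079).

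The outer ring held the 1 member that rose. Of the 8 genes grouped here as Y complex, 7 fell under TMM scaling, with a median of -0.20. With DESeq-type size factors, another scaling, 6 fell, and with library totals or after quantile normalization 3 fell. Of all genes tested, 31.1% were lower under TMM, 22.7% with library totals and 28.5% after quantile normalization. The group of 8 leaves out NUP98, which was grouped with the central channel, and so any Y complex product of that gene. NUP107 had 83.2, 85.1 and 80.8 CPM in OTUD1 siRNA libraries and 109, 110 and 109 CPM in control libraries (log2 fold change -0.39; edgeR adjusted p = 3.39e-09; SE 0.042). NUP85 had 60.9, 62.2 and 62.3 CPM in OTUD1 siRNA libraries and 77.7, 87.2 and 79.3 CPM in control libraries (-0.40, SE 0.05). NUP43 fell 1.26-fold. SEC13, which is also a coat protein of the vesicles that leave the endoplasmic reticulum, had 98.3, 91.9 and 99.5 CPM in OTUD1 siRNA libraries and 80.7, 80.2 and 84.5 CPM in control libraries (0.24, SE 0.045, edgeR adjusted p = 4.16e-05). Its groups did not overlap, and its share of the summed level of these 8 genes per kilobase was 32.9% to 35.2% in OTUD1 siRNA libraries and 26.3% to 27.7% in control libraries. With all annotated exon bases as the length that share was 19.0% to 20.5% in OTUD1 siRNA libraries and 14.5% to 15.3% in control libraries.

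The weakest Y complex changes depended on the scaling. NUP160 (log2 fold change -0.21) and NUP133 (-0.19) did not pass with library totals or after quantile normalization. SEH1L (-0.13, edgeR adjusted p = 0.0412) and NUP37 (-0.13, edgeR adjusted p = 0.0375) were at 0.0011 and 0.0027 with library totals. With DESeq-type size factors SEH1L lost its call (-0.12, edgeR adjusted p = 0.0523) and NUP37 kept it (edgeR adjusted p = 0.0475). SEH1L also lost its call without OTUD1 siRNA replicate 1 (-0.11) or 3 (-0.12) and without control replicate 2 (-0.11) or 3 (-0.10). NUP37 lost it without OTUD1 siRNA replicate 1 (-0.10) or 2 (-0.14) and without control replicate 3 (-0.10).

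The 3 genes of the cytoplasmic filaments fell, by 1.16-fold to 1.3-fold. RANBP2, the large filament protein that binds RAN and acts as a SUMO ligase, had 89.8, 89.4 and 89.1 CPM in OTUD1 siRNA libraries and 116, 118 and 114 CPM in control libraries (log2 fold change -0.38; edgeR adjusted p = 3.79e-09; SE 0.04). Its reads may be shared with the RGPD genes, which arose as copies of it, although RGPD8 (98 to 116 counts in OTUD1 siRNA libraries, 112 to 152 in control libraries) was the only one of 7 RGPD rows over 60 counts in any library. NUP88 had 78.5, 78.0 and 75.3 CPM in OTUD1 siRNA libraries and 96.7, 90.5 and 91.0 CPM in control libraries (-0.26, SE 0.045). It overlaps RPAIN and RABEP1 on the opposite strand over 988 exon bases, and the strand setting of the counting is not given, so its level is less certain. NUP214 was lower by 0.22 on the log2 scale under TMM scaling but did not pass with library totals (-0.090) or after quantile normalization (-0.15). It overlaps antisense transcripts over 1196 exon bases.

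Among the membrane anchors, 2 of 4 tested genes fell. NDC1, the transmembrane protein that recruits other anchors, had 59.4, 58.0 and 54.6 CPM in OTUD1 siRNA libraries and 76.7, 81.9 and 83.0 CPM in control libraries (log2 fold change -0.49; edgeR adjusted p = 1.36e-09; SE 0.05). NUP210 had 173, 165 and 167 CPM in OTUD1 siRNA libraries and 201, 189 and 197 CPM in control libraries (-0.22, SE 0.037, edgeR adjusted p = 9.36e-06), and it did not pass after quantile normalization (-0.073). AAAS, a partner of NDC1, had 70.4, 67.0 and 73.5 CPM in OTUD1 siRNA libraries and 79.3, 69.9 and 77.7 CPM in control libraries. The groups overlapped (log2 fold change -0.11, edgeR adjusted p = 0.0823), and AAAS passed as lower without OTUD1 siRNA replicate 3 (-0.14) or control replicate 2 (-0.16). POM121 had 63.5, 69.7 and 68.4 CPM in OTUD1 siRNA libraries and 59.0, 63.8 and 64.7 CPM in control libraries (0.10, edgeR adjusted p = 0.0897). POM121 passed as higher without OTUD1 siRNA replicate 1 (0.14), among genes averaging at least 5 CPM (0.15), with library totals (0.23) and with quantile normalization (0.19). POM121 has a near-identical copy, POM121C, which rose 1.27-fold, and how the counting divided reads between these 2 genes is not known. POM121 also overlaps NSUN5P2 and an antisense transcript over 1853 exon bases on the opposite strand. NUP210L had 2, 1 and 0 counts in OTUD1 siRNA libraries and 3, 1 and 3 in control libraries, and did not pass in a fit with no filter on low counts (edgeR adjusted p = 0.49).

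The importin alphas are adaptors that recognise the classical nuclear localisation signal. Of 6 tested, 4 fell. KPNA3 (ENSG00000102753.9; chromosome 13, minus strand) had 36.0, 33.0 and 31.7 CPM in OTUD1 siRNA libraries and 60.0, 72.5 and 69.4 CPM in control libraries (log2 fold change -1; edgeR adjusted p = 8.02e-14; SE 0.065). KPNA4, its closest paralog, fell 1.26-fold. KPNA2, the form most linked to dividing cells, had 304, 308 and 292 CPM in OTUD1 siRNA libraries and 426, 431 and 440 CPM in control libraries (-0.52, SE 0.031, edgeR adjusted p = 1.53e-14). KPNA6 fell 1.29-fold.

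KPNA1 and KPNA5 did not pass. KPNA1 had 42.9, 39.2 and 40.2 CPM in OTUD1 siRNA libraries and 36.3, 41.0 and 37.4 CPM in control libraries, with overlapping groups (log2 fold change 0.093, edgeR adjusted p = 0.2). KPNA1 passed as higher among genes averaging at least 5 CPM (0.14), with library totals (0.22) and with quantile normalization (0.16). It overlaps an antisense transcript over 1377 exon bases. KPNA5 averaged 11.1 ± 0.932 CPM in OTUD1 siRNA libraries and 12.05 ± 2.33 CPM in control libraries (SD, n = 3 each). KPNA7, an early embryonic form, had 9, 3 and 8 counts in OTUD1 siRNA libraries and 1, 2 and 0 in control libraries, a ratio of 5.69 with a 95% exact binomial interval of 1.69 to 29.9 that covers counting error only. In a fit with no filter on low counts it passed as higher (log2 fold change 2.38, edgeR adjusted p = 0.0493). Per kilobase, KPNA2 made up most of the family in both groups, 78.2% to 78.5% of the summed level in OTUD1 siRNA libraries and 78.4% to 79.8% in control libraries.

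In the importin beta family, 7 of 11 genes fell and 4 did not pass. KPNB1, importin beta itself, which carries importin alpha with its cargo, had 276, 262 and 260 CPM in OTUD1 siRNA libraries and 424, 443 and 441 CPM in control libraries (log2 fold change -0.71; edgeR adjusted p = 2.42e-17; SE 0.032). IPO7, an importer of ribosomal proteins, had 186, 191 and 190 CPM in OTUD1 siRNA libraries and 325, 353 and 333 CPM in control libraries (-0.84, SE 0.035, edgeR adjusted p = 3.5e-18). Its paralog IPO8 fell 1.66-fold. TNPO3, which imports SR splicing factors, fell 1.73-fold. TNPO1, which imports hnRNP proteins, fell 1.35-fold and its paralog TNPO2 1.2-fold. IPO9, an importer of histones and actin, fell 1.21-fold.

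IPO5, IPO13, IPO11 and IPO4 did not pass. IPO5, another importer of histones and ribosomal proteins, had 298, 294 and 286 CPM in OTUD1 siRNA libraries and 298, 306 and 308 CPM in control libraries (log2 fold change -0.054; edgeR adjusted p = 0.144; SE 0.032). The highest OTUD1 siRNA library lay just below the lowest control library. IPO5 passed as lower without control replicate 1 (-0.071) but as higher with library totals (0.075) and after quantile normalization (0.10). IPO13, which also exports cargo, had a log2 fold change of -0.032 under TMM scaling and 0.097 with library totals. IPO11 had one of 0.049, and it passed as higher with library totals (0.18). IPO11 shares 1707 exon bases with LRRC70 and KIF2A on the same strand, so its level is less certain. IPO4 had 9 to 15 counts per library, and 3470 of its 5007 annotated exon bases are shared with a read-through gene on the same strand, so its level is uncertain.

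IPO5 held a larger share of the importin beta family's summed level after OTUD1 siRNA. Per kilobase of the principal transcript it was 25.1% to 25.6% in OTUD1 siRNA libraries and 18.9% to 19.4% in control libraries, and per kilobase of all annotated exon bases 18.3% to 18.6% in OTUD1 siRNA libraries and 13.2% to 13.6% in control libraries. The order of levels depends on the length: by the principal transcript IPO5 (67.5 ± 1.35 CPM per kilobase) lay above KPNB1 (43.3 ± 1.36) in OTUD1 siRNA libraries, and by all exon bases KPNB1 (34.6 ± 1.09) lay above IPO5 (30.3 ± 0.605; SD, n = 3 each).

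**Figure D3:**
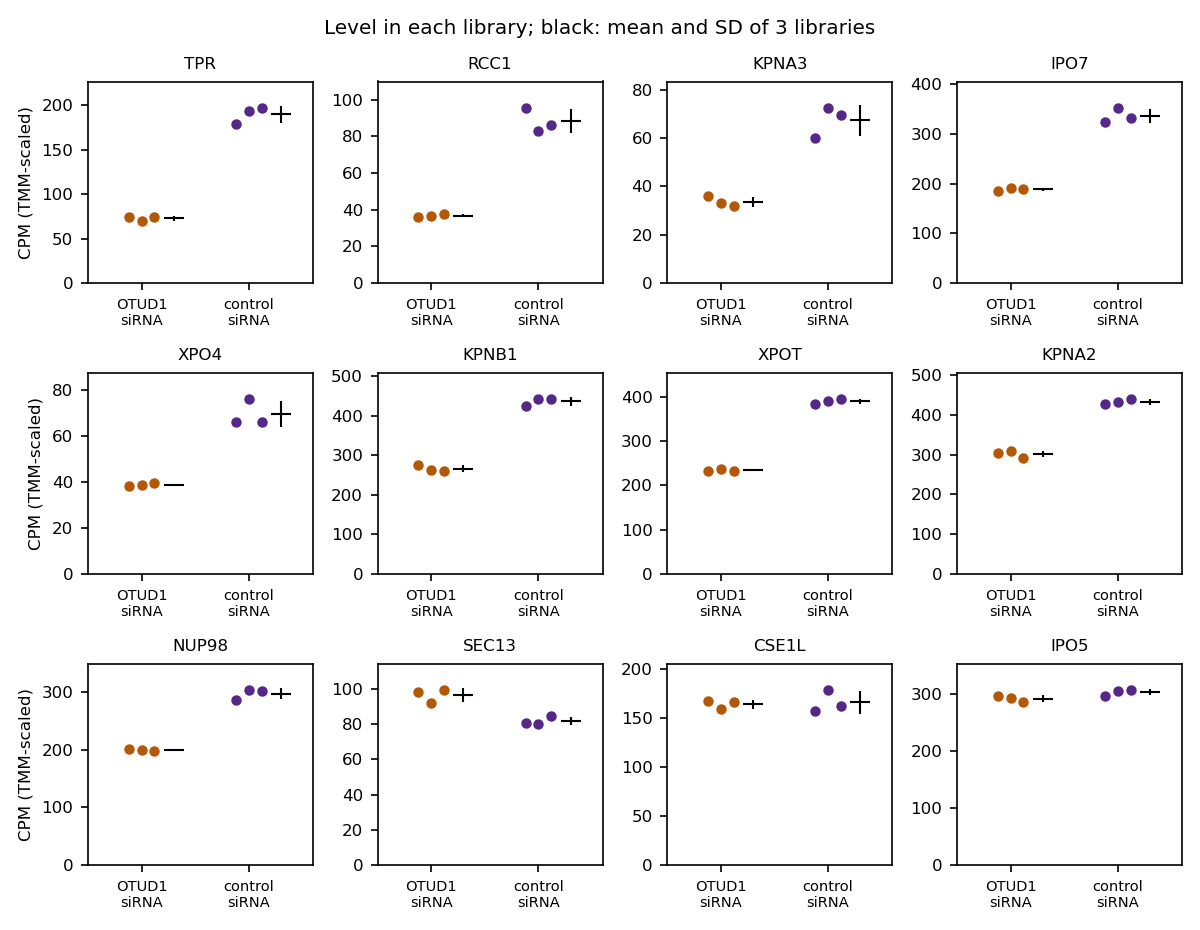
Level of 12 members in each library (y axis, TMM-scaled CPM; points are libraries, black marks are mean and SD of 3), OTUD1 siRNA left and control siRNA right. TPR, RCC1 and KPNA3 show the widest gaps, SEC13 is higher after OTUD1 siRNA, and CSE1L and IPO5 stay near their control level.

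Of 7 exportins, 6 fell. XPOT, the exporter of transfer RNA, had 233, 236 and 232 CPM in OTUD1 siRNA libraries and 383, 389 and 395 CPM in control libraries (log2 fold change -0.73; edgeR adjusted p = 5.05e-18; SE 0.031). XPO1 (CRM1), the receptor for leucine-rich export signals, had 187, 196 and 189 CPM in OTUD1 siRNA libraries and 287, 303 and 299 CPM in control libraries (-0.64, SE 0.034, edgeR adjusted p = 1.14e-15). Neither gene's groups came near each other. XPO4 fell 1.8-fold, XPO7 1.56-fold and XPO6, which exports actin with profilin, 1.41-fold. XPO6 had 220, 218 and 233 CPM in OTUD1 siRNA libraries and 312, 311 and 321 CPM in control libraries.

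The other two exportins changed little. XPO5, which exports microRNA precursors, was lower by 0.20 on the log2 scale under TMM scaling (SE 0.037, edgeR adjusted p = 4.03e-05), and did not pass with library totals (-0.067) or after quantile normalization (-0.074). CSE1L, which returns importin alpha to the cytoplasm, had 167, 159 and 167 CPM in OTUD1 siRNA libraries and 158, 179 and 162 CPM in control libraries. The groups overlapped (log2 fold change -0.018; edgeR adjusted p = 0.725; SE 0.042), and CSE1L passed as higher with library totals (0.11) and after quantile normalization (0.11). Its share of the exportins' summed level per kilobase of the principal transcript was 20.96% to 22.1% in OTUD1 siRNA libraries and 15.4% to 16.8% in control libraries.

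RAN and RCC1 both fell under TMM scaling, by different amounts. RCC1 (ENSG00000180198.16; chromosome 1, plus strand) had 35.9, 36.7 and 37.7 CPM in OTUD1 siRNA libraries and 95.6, 83.1 and 86.0 CPM in control libraries (log2 fold change -1.26; edgeR adjusted p = 1.19e-17; SE 0.056). RCC1 shares 242 exon bases with SNHG3 on the same strand, and SNHG3 had a log2 fold change of 0.00. RAN, the most abundant member per kilobase, had 664, 672 and 644 CPM in OTUD1 siRNA libraries and 789, 801 and 754 CPM in control libraries (-0.24, SE 0.029, edgeR adjusted p = 3.04e-08). After quantile normalization RAN was at 0.0069 and did not pass. RAN has 9 annotated pseudogenes, to which the counting may have given some of its reads. Of the genes that work with RAN, 5 of 7 fell and 0 rose under TMM scaling (31.1% and 29.3% of all genes tested). With library totals, and with limma after quantile normalization, 3 fell and 0 rose. Of all genes tested, 22.7% were lower with library totals and 28.5% after quantile normalization. RANGRF, the 1 gene with a positive fold change, had an unadjusted edgeR p of 0.258. RANBP1, a RAN-binding cofactor, fell 1.41-fold and the GTPase-activating protein RANGAP1 1.28-fold.

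The number of members that passed depended on the scaling. With library totals in place of TMM, the median of all genes tested was at 0.13 on the log2 scale, 3456 genes were called lower and 6189 higher, and 36 members passed as lower and 6 as higher. After quantile normalization, 34 members passed as lower and 5 as higher, against 28.5% and 31.2% of all genes tested. The members' median lay below that of all genes tested by 0.40 under TMM scaling, 0.40 with library totals and 0.31 after quantile normalization. With DESeq-type size factors 42 members passed as lower and 1 as higher, and their median was -0.39, close to that under TMM. The tool DESeq2 called 41 members lower and 1 higher. Of the 43 members called lower under TMM, 34 were also called lower under these 3 other scalings: library totals, quantile normalization and DESeq-type size factors. The other 9 were NUP133, NUP160, NUP188, NUP210, NUP214, NUP37, SEH1L, XPO5 and RAN.

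**Figure D4:**
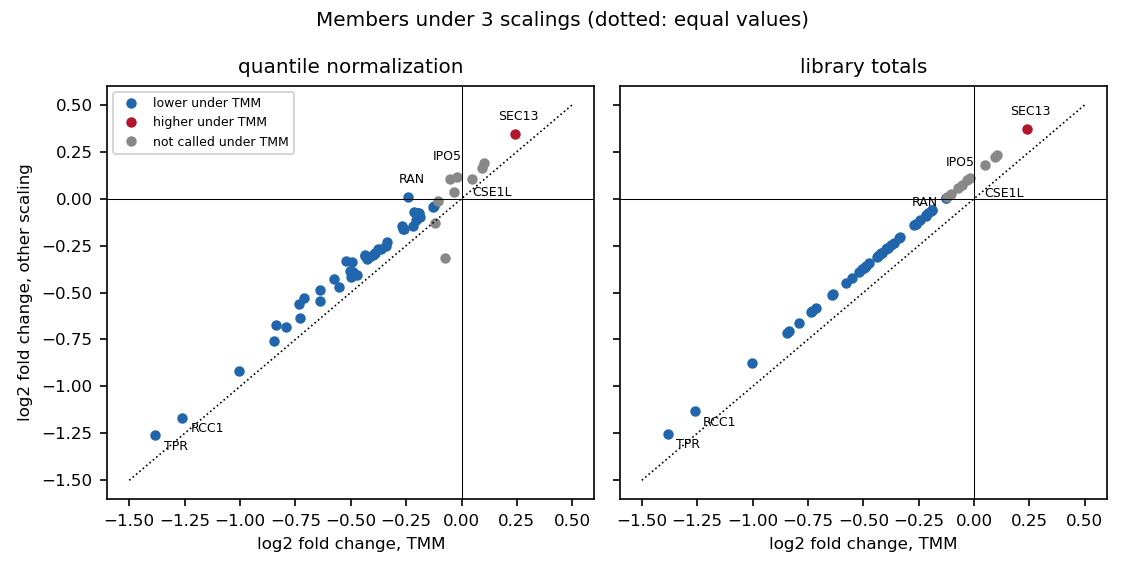
Log2 fold change of the members under TMM scaling (x axis) against quantile normalization (y axis, left) and library totals (y axis, right). The order of the members is much the same, with RAN at 0.0069 after quantile normalization, and IPO5 and CSE1L above 0 under both other scalings.

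Proliferation markers moved in the same direction. MKI67 fell 1.77-fold, CCNB1 1.72-fold and TOP2A 1.6-fold, and their part in the members' changes was not tested.

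The 3 members with the largest decreases carried a short sequence in their 3′ untranslated regions (UTRs). XPO4 and IPO7, which came next, did not carry it. The 7-mer CAAACAA came from an earlier search of these same data over all 3′ UTRs, so its presence is a description and no independent evidence. Of 52 tested members with a 3′ UTR of at least 50 bases in the principal GENCODE 29 transcript, 8 carried it (15.4%), against 14.04% of 12423 genes tested. Among them were TPR, RCC1 and KPNA3, the 3 members with the largest decreases, as well as IPO8 and KPNB1. The sites of these 5 are shown with 10 bases on either side, on the strand of the gene, with the 7-mer in capitals. KPNB1 has 2 sites, of which the one nearer the stop codon is shown.
TPR (hg38 chromosome 1, 186313182 to 186313208): aaccttgtgcCAAACAAggtatctgtt
RCC1 (chromosome 1, 28538428 to 28538454): agtccacaggCAAACAAatggtacagt
KPNA3 (chromosome 13, 49700895 to 49700921): aaacaaaaagCAAACAAaaaaaaactg
IPO8 (chromosome 12, 30629824 to 30629850): gaaaaagaccCAAACAAatctaacttc
KPNB1 (chromosome 17, 47683390 to 47683416): aatcacaaccCAAACAAaccaaaattt

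The other 3 carriers, IPO9, NUP214 and KPNA5, had log2 fold changes of -0.27, -0.22 and -0.12. A second 7-mer from that search, AAACAAA, which overlaps the first where an A follows it, stood without the first in 14 members, among them IPO7, XPO4 and TNPO3. The median log2 fold change was -0.72 for the 8 members with CAAACAA, -0.49 for the 14 with AAACAAA only and -0.26 for the 30 with neither. Over all genes tested the same medians were -0.24, -0.13 and 0.03. With CAAACAA, 7 of 8 members were called lower (54.0% of all genes of that class), with AAACAAA only 12 of 14 (45.0%), and with neither 24 of 30 (29.1%). Both 7-mers came from a search of these same data, so the order of these medians and counts is a description and no independent evidence. The 1 member called higher, SEC13, had neither, as had XPOT. Carriers have longer 3′ UTRs (median 2406 bases for members with CAAACAA, 684.5 for members with neither), and the part of the 7-mers or of length in the members' changes was not tested.

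**Figure D5:**
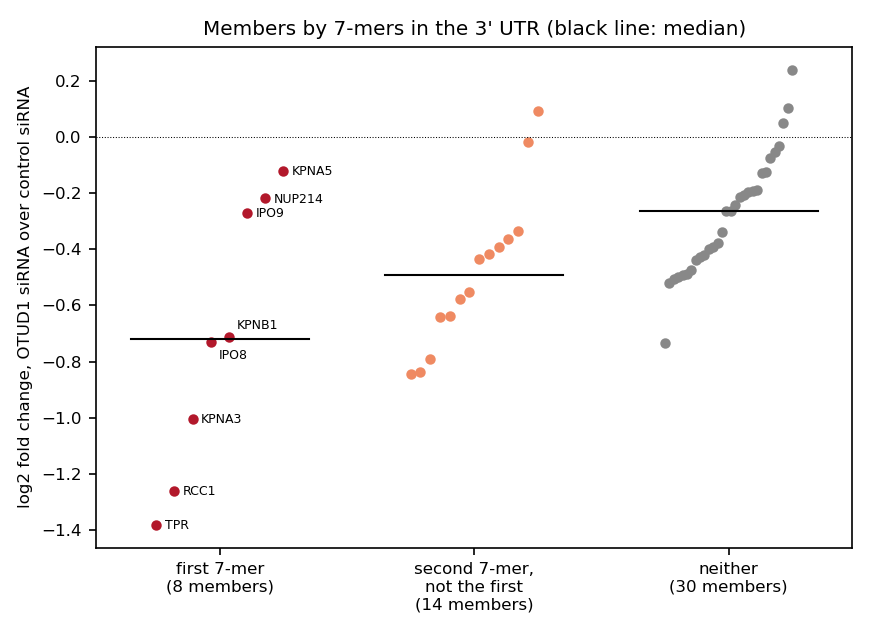
Log2 fold change of members (y axis, OTUD1 siRNA over control siRNA) by 7-mers in the 3′ UTR: CAAACAA (first), AAACAAA without it (second), or neither. Black lines are medians, at -0.72, -0.49 and -0.26, and TPR, RCC1 and KPNA3 all lie in the first class. Both 7-mers came from an earlier search of these same data.

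Other genes of the pathway were read against the same shares of all genes tested, 31.1% lower and 29.3% higher. Of 6 tested pore subunits not taken by the symbol rule, 2 fell and 2 rose, near those shares. AHCTF1 (ELYS), which starts pore assembly on chromatin, fell 1.31-fold, and NUP62CL 1.7-fold. POM121C rose 1.27-fold. GLE1, which activates the messenger RNA (mRNA) export helicase at the cytoplasmic face, rose 1.99-fold (edgeR adjusted p = 8.84e-13). It averaged 37.0 ± 1.39 CPM in OTUD1 siRNA libraries and 18.5 ± 1.36 CPM in control libraries (SD, n = 3 each).

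Of 20 tested mRNA export genes, 12 fell and 5 rose. CHTOP and POLDIP3, which bind spliced mRNA with the export complex, fell 1.45-fold and 1.49-fold. THOC7, a subunit of the THO complex, rose 1.82-fold. MCM3AP, the scaffold of the export complex TREX-2, rose 1.14-fold. With library totals the counts for this list were 8 lower and 7 higher (22.7% and 40.6% of all genes tested).

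Of 7 transport adaptors, 3 fell and 3 rose. The cap-binding proteins NCBP2 and NCBP1 fell 1.54-fold and 1.2-fold, and PHAX, the adaptor that joins them to XPO1 for small nuclear RNA, fell 1.27-fold. RANBP6, a relative of IPO5, rose 1.3-fold, and NMD3, the export adaptor of the large ribosomal subunit, rose 1.2-fold.

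Of 15 genes of the nuclear lamina and envelope, 10 fell and 2 rose. TMPO, which encodes the lamina-associated LAP2 proteins, fell 2.38-fold, and the B-type lamin genes LMNB1 and LMNB2 fell 1.59-fold and 1.44-fold. EMD (emerin) rose 1.19-fold and LEMD2 1.17-fold. With library totals and after quantile normalization, 9 genes of this list passed as lower and 2 as higher. The shares of all genes tested were 22.7% and 40.6% with library totals, and 28.5% and 31.2% after quantile normalization.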

How the data were processed

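Strand-specific RNA-seq libraries (NEBNext Ultra Directional) of ACHN cells were prepared from Trizol extracts, per the labels' protocols. The submitters' processing notes name the build hg38. The sources used here give no aligner, counter, annotation or strand option. The deposited values are whole-number counts per gene symbol, although the table's name speaks of FPKM, and were treated as raw counts. The test was that of edgeR 4.0.16 in R 4.3.3 (filterByExpr, minimum count 10 and total 15; TMM; glmQLFit and glmQLFTest, two-sided, Benjamini-Hochberg over all 15244 genes, threshold 0.05). Each SE is the log2 fold change divided by the square root of F. DESeq2 1.42.0 and limma 3.58.1 served as alternatives. On simulated counts (15244 genes), the fit called 71.4% of 98 genes given a log2 change of 0.5 and 92.9% of 98 given 1. There, 4 unchanged genes were called. The simulation changed few genes, up and down alike, with the same dispersion for all. In the real comparison 60.4% of genes were called, so these rates do not describe it. No library was a copy of another: chi-square per gene averaged 2.05 to 3.8 within groups, above sampling noise. Gene positions, principal transcripts, lengths and 3′ UTRs come from GENCODE 29 (hg38). Levels per kilobase use the principal transcript; annotated exon bases were added as an alternative after seeing the data. Members, gene lists and tests were chosen with earlier results of these data known. Values per library were printed for the 2 called members with the smallest adjusted p in each role group, for called members against their group, and for the most abundant per kilobase; other members named with values were chosen after these were seen.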

Additional observations from a re-analysis of the deposited data

How the results depend on the processing

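Alternatives covered the filter on low counts, scaling, tool, replicate number as a block and each library left out. The 74 genes followed were the members, OTUD1 and called genes of the other lists picked by smallest adjusted p. Other genes named in the text were not followed. Of 1034 comparisons of a followed gene with its main value, 979 kept direction and side of the threshold. All 18 genes with a change were members, but the list genes had been picked for their small adjusted p. The number of members called higher was 3 with a minimum mean of 5 CPM, 6 with library totals, 5 after quantile normalization and 1 to 2 with 1 library left out. The members' median log2 fold change was -0.34 with a minimum mean of 5 CPM, -0.26 with library totals, -0.29 after quantile normalization, and -0.40 to -0.36 with 1 library left out. With library totals, 8 members turned positive: SEH1L (0.0011), NUP37 (0.0027), AAAS (0.024), KPNA5 (0.0070), IPO4 (0.054), IPO5 (0.075), IPO13 (0.097) and CSE1L (0.11). After quantile normalization 4 did: IPO5 (0.10), IPO13 (0.038), CSE1L (0.11) and RAN (0.0069). With a minimum mean of 5 CPM 2 did: IPO13 (0.016) and CSE1L (0.029). With 1 library left out, KPNA5 ranged over -0.25 to 0.031, IPO4 over -0.24 to 0.071, IPO11 over -0.0020 to 0.13 and CSE1L over -0.059 to 0.042. The cause was not tested. Exon bases as the length, chosen after seeing the data, put SEC13's share of the Y complex group at 19.0% to 20.5% in OTUD1 siRNA libraries and 14.5% to 15.3% in control libraries. Same-numbered libraries showed no common deviation (correlations -0.0229 to 0.0178), although a weak pairing may not show in these values. With the replicate block 43 members fell, 1 rose, and 4791 genes were lower and 4484 higher. Counting error limits IPO4, KPNA7 and NUP210L.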
